A study of Mus musculus with 6 samples.

Results

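The Reelin signalling genes described here are the secreted ligand gene Reln, its receptor genes Vldlr and Lrp8, and Dab1, which encodes the adaptor that carries the signal into the cell. They were taken by symbol, so that 4 of the 54146 genes in the count tables are concerned, and all 4 had enough reads to be tested. Reelin is a large glycoprotein of the extracellular matrix. It binds the lipoprotein receptors Vldlr and Lrp8 (also called ApoER2), whose clustering leads to phosphorylation of Dab1 by Src family kinases and then to the breakdown of Dab1. In the developing cortex Reelin comes first from Cajal-Retzius cells at the pial surface and later also from inhibitory neurons, and the pathway is known for ordering migrating neurons into layers, a process that is disturbed in the reeler mouse.

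The 6 libraries came from the cortex of wild-type mouse embryos, electroporated in utero at E14.5 (embryonic day), whose cells were sorted for green fluorescence 24 hours later, at E15.5. In the Mir group (3 libraries) the plasmid psil-pre-miR3607 expressed a hairpin for the microRNA miR-3607-5p from the U6 promoter. In the Scr group (3 libraries) psil-pre-miRScr expressed the negative control hairpin of the vector kit from the same promoter, which the labels describe as matching no mouse, human or rat sequence. All 6 libraries also carried pCAG-GFP, at 0.7 µg/µl beside 1 µg/µl of the hairpin plasmid, and each library pooled the cells of 2 embryos. The U6 promoter is active in any cell type that takes up the plasmid, the strain is labelled both as ICR and as C57BL/6, and the level of the hairpin itself was not analysed here. The comparison addresses how more miR-3607 alters transcript levels in cortical progenitors, here those of the genes that send, receive and relay the Reelin signal.

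The hairpin arm expected to act as the mature microRNA is shown because a match to its seed is what would mark a member as a possible direct target. It is the segment after the loop of the oligonucleotide given in the labels, without the terminal run of T, with which one further base may belong to the mature form, and the capitals mark the seed, bases 2 to 8.
miR-3607 arm: gCATGTGAtgaagcaaatcag
A 3′ UTR was searched, on the transcript strand, for TCACATG (the reverse complement of the seed) and for CACATGA (the reverse complement of bases 2 to 7, followed by A). These overlap in 6 bases, and both occur in the longer match TCACATGA. Reln, Lrp8 and Dab1 held neither in the 3′ UTRs of 1019, 1588 and 3347 nt that belong to their transcripts with the longest coding sequence, in GENCODE M21 on GRCm38. The 3′ UTR of Vldlr, 5091 nt long, held CACATGA once, from base 4919, at chr19:27254059-27254065 on the plus strand. It is shown in capitals with its flanking bases.
Vldlr 3′ UTR: atggcttaagaaCACATGAtgtctcagaag
Among genes whose 3′ UTR lengths were within 20% of that of Vldlr, 50.1% held at least 1 of the matches. The corresponding shares were 13% for the length of the Reln 3′ UTR, 20.0% for Lrp8 and 38.2% for Dab1. A match of this kind is a property of the sequence and was not tested as a site.

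Counts in genes were 12724511 to 16684038 per library, and levels are counts scaled to the TMM-normalized library size (CPM). Libraries differed within groups as well as between them: Scr replicate 2 and Mir replicate 3 stood apart from the other libraries of their groups in their inhibitory neuron markers, and Mir replicate 2 in its pericyte and meningeal markers, with values given beside the results. Without Scr replicate 2 and Mir replicate 3, Reln was at -1.37, Vldlr at -0.72, Lrp8 at 0.17 and Dab1 at -0.90 on the log2 scale, with edgeR adjusted p-values of 0.0881, 0.0838, 0.682 and 0.109. Leaving out Mir replicate 2 alone gave -1.04 for Reln, -0.43 for Vldlr, 0.05 for Lrp8 and -0.61 for Dab1, and the edgeR adjusted p was 0.587, 0.733, 0.959 and 0.673. Each log2 fold change compares Mir with Scr (positive where Mir was higher) and stands with its standard error, from edgeR's quasi-likelihood test. Adjusted p-values are Benjamini-Hochberg values over the 16897 genes tested, and a gene was called at an adjusted p under 0.05. Intervals and standard errors describe the spread of 3 pools of embryos per group.

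Of the 4 genes, Reln, Vldlr and Dab1 had lower means in Mir than in Scr, and Lrp8 was at 0.11 ± 0.19 on the log2 scale, with an interval that spans no difference. The largest difference was that of the ligand, at 0.406 times the Scr level. None of the 4 passed the edgeR threshold, where 0.00592% of all genes tested did. Reln and Dab1 were lower in Mir at an unadjusted p under 0.05, where 7.93% of all genes tested were lower and 6.57% higher. DESeq2 called Reln alone among the 4, as lower, against 4.37% of the genes it gave an adjusted p (2.51% lower and 1.86% higher), and limma-voom called none. Without overlap between the groups was Reln alone, 1 of 4 genes, where 20% of all genes tested showed none. The median log2 fold change of the 4 genes was -0.71, against -0.01 for all genes tested, and 3 of 4 had lower means in Mir, against 51.2% of all genes tested.

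**Figure D1:**
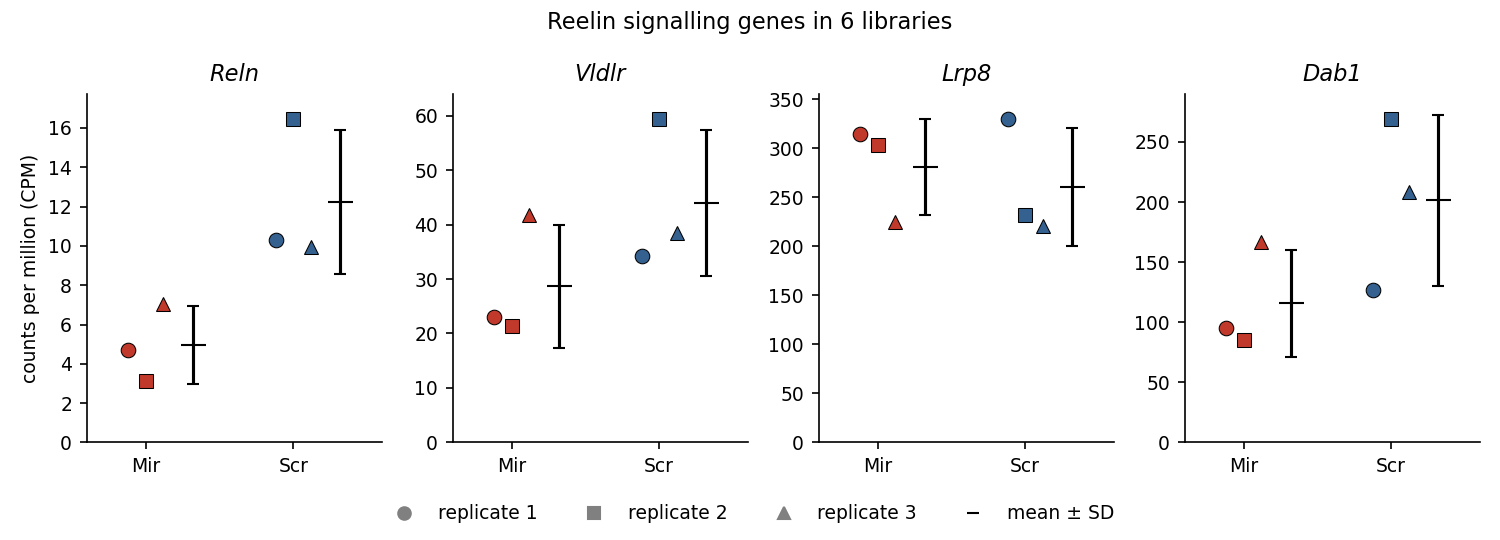
Level of each Reelin signalling gene in CPM (y axis, from 0) in the 3 Mir and the 3 Scr libraries; symbols mark the replicate number and the bars are mean ± SD of 3 libraries. The 3 Mir libraries lie below the 3 Scr libraries for Reln, whereas the groups overlap for Vldlr, Lrp8 and Dab1.

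Reln (ENSMUSG00000042453; GRCm38, chromosome 5, 21884454 to 22344702, minus strand) encodes the ligand. It had 74, 49 and 104 counts in Mir replicates 1, 2 and 3, against 132, 227 and 165 counts in Scr replicates 1, 2 and 3. The corresponding levels were 4.71, 3.13 and 7.06 CPM in Mir, against 10.3, 16.4 and 9.94 CPM in Scr. Every Mir library was thus below every Scr library, with Mir replicate 3 the nearest to the Scr group and Scr replicate 2 the highest of all. Mean levels were 4.96 ± 1.98 CPM in Mir and 12.2 ± 3.66 CPM in Scr (SD, n = 3 each). The log2 fold change was -1.30 ± 0.35, with a 95% interval of -2.11 to -0.49, an unadjusted p of 0.00618 and an adjusted p of 0.219 by edgeR. By DESeq2 the log2 fold change was -1.30 with an adjusted p of 0.0210. By edgeR, 3.08% of the genes tested had a lower fold change than Reln. Of its exon bases, 1.04% are shared with Gm10475, an antisense gene that had at most 14 counts in a library, and the library kit does not mark the strand.

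The cells in which Reln is usually made were followed by 2 marker lists, since in bulk RNA fewer cells of a type and less RNA per cell cannot be told apart. Cajal-Retzius cells, which are postmitotic neurons of the marginal zone, had few reads: Lhx5, a homeobox factor of these cells, had 0, 0 and 1 counts in the Mir libraries and 3, 0 and 0 in the Scr libraries, in the order of replicate number. Trp73, which encodes p73 and is a defining marker of these cells, had 3, 0 and 31 counts in Mir and 3, 7 and 0 in Scr, so that a single library, Mir replicate 3, held most of them. Lhx1, another homeobox factor, had 5, 6 and 3 counts in Mir and 2, 0 and 0 in Scr, each Mir library above each Scr library. Ebf2 and Ebf3, transcription factors that complete the defining markers, were present in every library, with 15 to 26 and 24 to 41 counts in Mir and 15 to 23 and 21 to 47 counts in Scr. The summed level of the 10 listed markers was 19.6 to 27.7 CPM in Mir and 22.4 to 30.3 CPM in Scr, most of it from Nhlh2. The 6 markers with enough reads to be tested had lower means in Mir (median -0.23 on the log2 scale). Of those with too few reads to be tested, Lhx1 and Trp73 had higher means in Mir, and Lhx5 and Car10 lower. No marker was called by edgeR, none had an unadjusted p under 0.05 and the smallest adjusted p was 0.562. The part of Cajal-Retzius cells in the Reln difference was not tested.

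Inhibitory neurons, which enter the cortex from the ventral forebrain, were represented more strongly. The summed level of 12 inhibitory neuron markers was 219.6, 204 and 482 CPM in Mir replicates 1, 2 and 3, against 369, 1385 and 507 CPM in Scr replicates 1, 2 and 3. All 11 markers tested had lower means in Mir, the median being -1.53 on the log2 scale. None was called by edgeR, and 9 had an unadjusted p under 0.05, all lower in Mir, against 7.93% of all genes tested. Gad1, the enzyme that makes GABA, was at 3.88, 6.71 and 18.8 CPM in Mir and at 13.9, 83.1 and 23.6 CPM in Scr. Gad2 (the second such enzyme), Slc32a1 (the vesicular GABA transporter) and Dlx1, Dlx2 and Dlx5 (homeobox factors of the ventral forebrain) had log2 fold changes of -1.48, -2.38, -1.53, -1.17 and -1.49. No defining marker of this list was at 0 in any library. Reln and this list shared their highest library, Scr replicate 2, and their lowest, Mir replicate 2. Reln amounted to 2.14, 1.54 and 1.46% of the summed inhibitory neuron marker level in Mir replicates 1, 2 and 3, against 2.79, 1.19 and 1.96% in Scr replicates 1, 2 and 3, so that the groups overlapped on this relative scale. The divisor itself ran from 204 to 1385 CPM, so the overlap reflects the divisor as well as Reln. Sorting for GFP after electroporation of the cortex would be expected to remove most cells that did not take up the plasmid. Whether the cells that gave the inhibitory neuron markers had taken it up was not tested. The part of inhibitory neurons in the Reln difference was not tested.

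**Figure D2:**
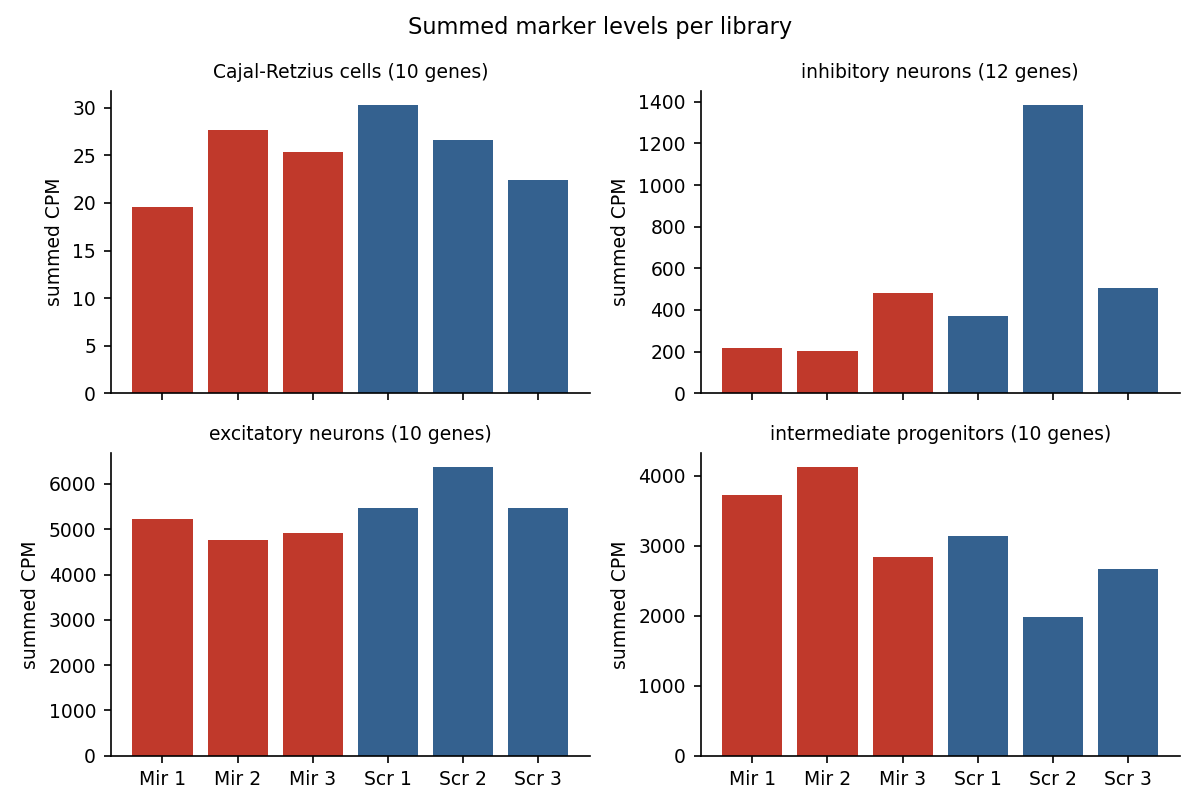
Summed CPM (y axis, from 0, with its own scale in each panel) of the marker lists of Cajal-Retzius cells, inhibitory neurons, excitatory neurons and intermediate progenitors in each library, with Mir in red and Scr in blue. Scr replicate 2 has the tallest bar for inhibitory neurons, at 1385 CPM, and the shortest for intermediate progenitors, at 1985 CPM.

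The receptor gene Vldlr (ENSMUSG00000024924; chromosome 19, 27216484 to 27254231, plus strand) measured 23.0, 21.3 and 41.7 CPM in Mir replicates 1, 2 and 3, against 34.3, 59.3 and 38.4 CPM in Scr replicates 1, 2 and 3. Mir replicates 1 and 2 were the lowest libraries, but Mir replicate 3 was above Scr replicates 1 and 3, so that the groups overlapped. The counts behind these levels were 334 to 614 in Mir and 440 to 819 in Scr. Means were 28.7 ± 11.3 CPM in Mir and 44.0 ± 13.4 CPM in Scr (SD, n = 3 each), and the log2 fold change was -0.62 ± 0.31, with a 95% interval of -1.33 to 0.09, an unadjusted p of 0.0791 and an edgeR adjusted p of 0.400. Without Mir replicate 3 the log2 fold change was -1.0, with an edgeR adjusted p of 0.156, and without Scr replicate 2 it was -0.35, with an edgeR adjusted p of 0.692.

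The other receptor gene, Lrp8 (ENSMUSG00000028613; chromosome 4, 107802261 to 107876840, plus strand), encodes the receptor with the stronger link to late-born neurons. It measured 314, 303 and 225 CPM in Mir replicates 1, 2 and 3, against 329.6, 232 and 220.3 CPM in Scr replicates 1, 2 and 3. The high libraries were Mir replicates 1 and 2 and Scr replicate 1, and the low libraries were Mir replicate 3 and Scr replicates 2 and 3, so that the split ran across the groups. Means were 281 ± 48.9 CPM in Mir and 261 ± 60.1 CPM in Scr (SD, n = 3 each). The log2 fold change was 0.11 ± 0.19, with a 95% interval of -0.33 to 0.54 and an edgeR adjusted p of 0.829. That interval runs from 0.797 to 1.46 times the Scr level, so differences within it are not excluded by 3 against 3 libraries.

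Dab1 (ENSMUSG00000028519; chromosome 4, 103619359 to 104744844, plus strand) encodes the adaptor that binds the receptor tails and becomes phosphorylated on tyrosine. It measured 95.5, 85.1 and 167 CPM in Mir replicates 1, 2 and 3, against 127, 269 and 208 CPM in Scr replicates 1, 2 and 3. Mir replicate 3 was above Scr replicate 1, and this pair alone made the groups overlap. Means were 116 ± 44.4 CPM in Mir and 201 ± 71.3 CPM in Scr (SD, n = 3 each). The log2 fold change was -0.80 ± 0.33, with a 95% interval of -1.56 to -0.04, an unadjusted p of 0.0418 and an adjusted p of 0.326 by edgeR. DESeq2 gave an adjusted p of 0.338. Dab1 was at -1.17 without Mir replicate 3 and at -0.54 without Scr replicate 2, with edgeR adjusted p-values of 0.157 and 0.561. No exon of Vldlr, Lrp8 or Dab1 overlaps an exon of another annotated gene.

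Reln, Vldlr and Dab1 shared a large part of their order across libraries, and Lrp8 had another order. For all 3, Mir replicate 2 was the lowest library, Mir replicate 1 the next lowest and Scr replicate 2 the highest. In Mir replicate 3, Reln, Vldlr and Dab1 were at 1.80, 1.88 and 1.85 times the mean of Mir replicates 1 and 2, and Lrp8 at 0.727 times. The highest library was at 5.25 times the lowest for Reln, 3.16 times for Dab1, 2.78 times for Vldlr and 1.5 times for Lrp8. In Mir replicate 3, inhibitory neuron markers were also higher than in Mir replicates 1 and 2, and intermediate progenitor markers lower. The summed level of 10 intermediate progenitor markers, genes of the transit-amplifying cells that divide away from the ventricle, was 3726, 4118 and 2841 CPM in Mir replicates 1, 2 and 3, against 3136, 1985 and 2664 CPM in Scr replicates 1, 2 and 3. The 3 libraries with the highest sums, Mir replicates 1 and 2 and Scr replicate 1, are also the 3 libraries in which Lrp8 was highest. Eomes, the defining transcription factor of these progenitors, was at 479, 524 and 270.4 CPM in Mir and at 363, 173 and 274 CPM in Scr.

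Compared per length of the merged exons, the receptor Lrp8 and the adaptor Dab1 were the abundant members and the ligand was scarce. Lrp8 was at 26.7 ± 4.65 CPM per kb in Mir and 24.8 ± 5.71 CPM per kb in Scr, and Dab1 at 14.6 ± 5.62 CPM per kb in Mir and 25.5 ± 9.01 CPM per kb in Scr (SD, n = 3 each). Vldlr followed at 2.85 ± 1.12 CPM per kb in Mir and 4.37 ± 1.33 CPM per kb in Scr, and Reln at 0.209 ± 0.0833 CPM per kb in Mir and 0.515 ± 0.154 CPM per kb in Scr. The order in Mir was Lrp8, Dab1, Vldlr and Reln. In Scr, Lrp8 and Dab1 did not differ beyond their spread, and which of these led depended on the length used: Dab1 led by merged exons and Lrp8 by the transcript with the longest coding sequence. In Mir the lowest Lrp8 library, at 21.4 CPM per kb, and the highest Dab1 library, at 21.1 CPM per kb, were the same library, Mir replicate 3. Vldlr lay below Dab1 and above Reln in every library. Over all 6 libraries, 83.6% of the tested genes had a lower level per kb than Lrp8, 79.3% than Dab1, 41.7% than Vldlr and 6.89% than Reln.

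Within the receptor pair, Lrp8 made up most of the signal. Vldlr amounted to 7.09, 6.84 and 16.2% of the summed receptor level per kb of merged exons in Mir replicates 1, 2 and 3, against 9.80, 21.1 and 15.4% in Scr replicates 1, 2 and 3. By the transcript with the longest coding sequence the shares were lower, at 4.01, 3.86 and 9.58% in Mir and 5.61, 12.8 and 9.05% in Scr. By both lengths the groups overlapped, since Mir replicate 3 was above Scr replicates 1 and 3. The ratio of Dab1 to Vldlr, both per kb of merged exons, was nearly the same in the Mir libraries, at 5.29, 5.08 and 5.09, and more variable in the Scr libraries, at 4.71, 5.77 and 6.92. The ratio of Dab1 to Reln, also per kb of merged exons, was 60.9, 81.6 and 70.9 in Mir replicates 1, 2 and 3, against 37.0, 49.1 and 62.9 in Scr replicates 1, 2 and 3, again with overlap.

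**Figure D3:**
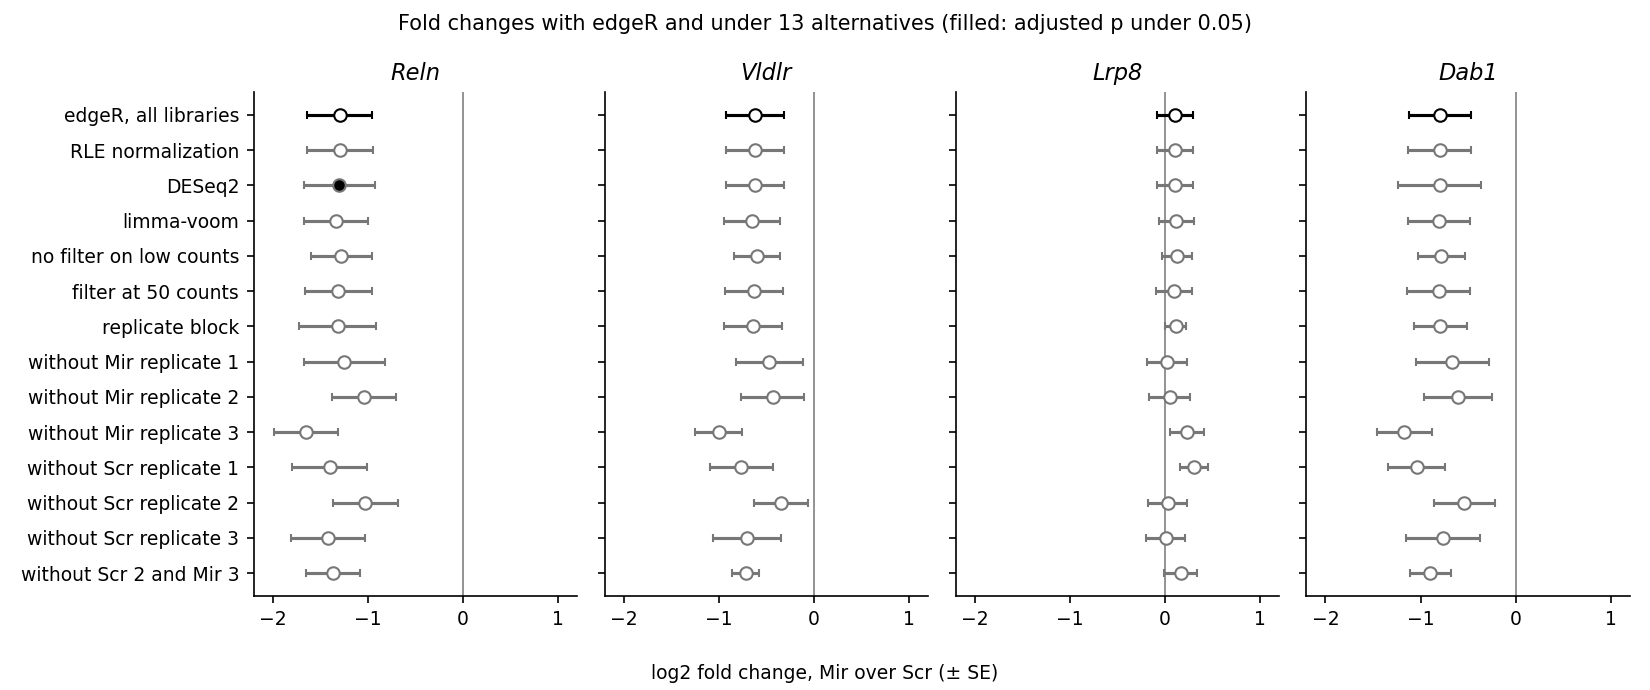
Log2 fold change of each gene, Mir over Scr (x axis, ± SE), under edgeR with all libraries (black) and 13 alternatives (grey); filled points have an adjusted p under 0.05. Reln, Vldlr and Dab1 stay left of 0 under all 14 settings and Lrp8 right of 0, and Reln with DESeq2 is the sole filled point.

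Around these 4 genes, 44 other genes of the pathway were compared by role, and all 44 had enough reads to be tested. In Mir, 17 had higher and 27 had lower means, with a median log2 fold change of -0.08 against -0.01 for all genes tested. None was called by edgeR or limma-voom. At an unadjusted p under 0.05, edgeR gave 2 higher and 5 lower, against 6.57% and 7.93% of all genes tested. DESeq2 called 0 higher and 1 lower, Rap1b, against 1.86% and 2.51% of all genes it gave an adjusted p. It left 4 of the 44 without one. In 13 of the 44 the groups did not overlap, 4 above and 9 below, against 9.72% and 10.3% of all genes tested.

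At the level of the ligand, the proteases that cut Reelin outside the cell had 2 higher and 3 lower means. Adamts3, a protease that inactivates Reelin by a cut near its N-terminus, measured 2.61, 2.17 and 2.71 CPM in Mir replicates 1, 2 and 3, against 3.82, 8.11 and 5.66 CPM in Scr replicates 1, 2 and 3. The groups did not overlap, the log2 fold change was -1.23 ± 0.33, and the adjusted p was 0.216 by edgeR and 0.0512 by DESeq2. Adamts5, a related protease, was at 1.68 ± 0.512 CPM in Mir and 3.21 ± 0.629 CPM in Scr (SD, n = 3 each), also without overlap, at -0.93 ± 0.34 on the log2 scale (edgeR adjusted p 0.295). Adamts2, another protease of this group, went the other way, at 0.78 ± 0.37 on the log2 scale (edgeR adjusted p 0.383). It measured 4.64, 2.81 and 2.04 CPM in Mir replicates 1, 2 and 3, all above the 1.87, 1.74 and 1.93 CPM in Scr. Of 4 other ligands of the receptors, 1 had a higher and 3 a lower mean. Clu (clusterin, a secreted chaperone) was at 0.40 ± 0.21 and Spon1 (F-spondin, an extracellular matrix protein) at -0.23 ± 0.46 on the log2 scale, and Spon1 turned positive without Mir replicate 2 or without Scr replicate 2.

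At the receptors and their adaptor, Snx17, a sorting nexin that recycles lipoprotein receptors to the surface, had a log2 fold change of 0.28 ± 0.09. Its levels were 242, 237 and 215 CPM in Mir replicates 1, 2 and 3, all above the 200.5, 182 and 190.3 CPM in Scr replicates 1, 2 and 3, with an edgeR adjusted p of 0.250. Mylip, a ligase that marks Vldlr and Lrp8 for degradation, was at -0.94 ± 0.61 and turned positive without Scr replicate 2. Among the kinases of Dab1, 2 had higher and 1 a lower mean: Src was at 0.17 ± 0.11, Yes1 at -0.10 ± 0.17 (positive where Scr replicate 2 was left out, alone or together with Mir replicate 3) and Fyn, the main kinase of Dab1 in neurons, at 0.03 ± 0.10. The genes of Dab1 breakdown, Socs7 and Rnf7 (parts of the ubiquitin ligase built on Cul5), were at -0.31 ± 0.17 and -0.20 ± 0.11, each without overlap between groups, and all 3 members of this group had lower means in Mir, with none called and none at an unadjusted p under 0.05.

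Downstream of Dab1, Rap1b, a small GTPase that acts on cadherin and integrin adhesion, had 168, 139.7 and 184 CPM in Mir and 228, 211 and 225 CPM in Scr. Every Mir library was below every Scr library. Its log2 fold change was -0.43 ± 0.11, with adjusted p-values of 0.214 by edgeR and 0.0298 by DESeq2. In the same branch, the adaptor gene Crk was at 0.23 ± 0.10 on the log2 scale. In the PI3K branch, 3 genes had higher and 4 lower means. Pik3r2, a regulatory subunit of PI3K, was at 0.22 ± 0.09, and Pik3ca, a catalytic subunit, at -0.19 ± 0.08. The edgeR adjusted p was 0.326 for Pik3r2 and 0.345 for Pik3ca. Crk and Pik3r2 had every Mir library above every Scr library, and Pik3ca had every Mir library below.

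Among the remaining groups, the cytoskeletal genes had 4 of 4 lower means. Ndel1, a dynein regulator that works with Lis1, measured 102, 90.0 and 85.6 CPM in Mir replicates 1, 2 and 3, against 115, 119 and 114 CPM in Scr replicates 1, 2 and 3, which is -0.33 ± 0.09 on the log2 scale (edgeR adjusted p 0.236), and Cfl1, the actin-severing cofilin, was at -0.17 ± 0.09. Adhesion genes had 4 higher and 3 lower means, with Cdh2 (N-cadherin) at 0.16 ± 0.10 and Nectin1 at -0.28 ± 0.19. The Cdk5 arm, a kinase system that acts in parallel to Reelin in neuronal migration, had 3 of 3 lower means, with Cdk5r2, an activator of Cdk5, at -1.08 ± 0.48 from 0.509 to 1.47 CPM in Mir and 1.45 to 2.90 CPM in Scr, and Cdk5 at -0.14 ± 0.08.

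**Figure D4:**
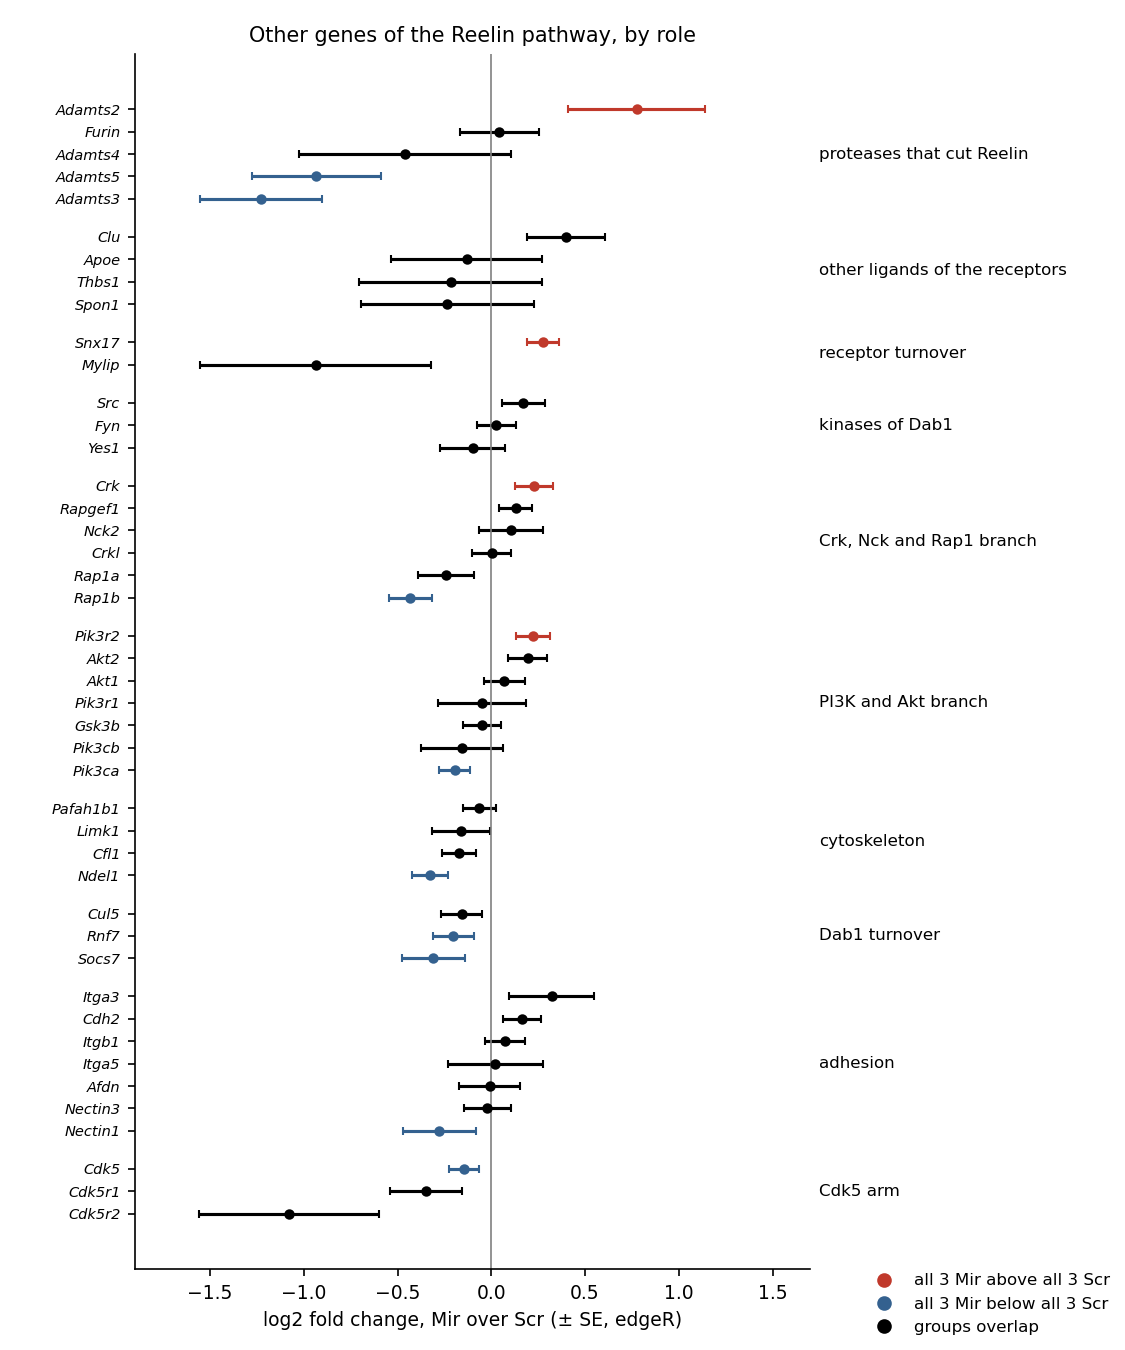
Log2 fold change, Mir over Scr (x axis, ± SE, edgeR), of the 44 tested pathway genes grouped by role. Red marks 4 genes whose 3 Mir libraries all lie above the Scr libraries and blue 9 genes whose Mir libraries all lie below; Adamts3 has the lowest value, at -1.23.

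Markers of the other cell types in the sort had the following values. Excitatory neuron markers summed to 4759 to 5226 CPM in Mir and 5468 to 6366 CPM in Scr, with 3 higher and 7 lower means and a median log2 fold change of -0.27; Tbr1 and Neurod2, factors of excitatory neurons, were at 0.04 and 0.08, Neurod6 at -0.13 and Tubb3, a neuronal tubulin, at -0.42. Radial glia markers summed to 1744 to 2601 CPM in Mir and 1485 to 2076 CPM in Scr, with 8 higher and 2 lower means and a median of 0.18, and their defining genes Pax6, Sox2, Fabp7 and Slc1a3 were at 0.41, 0.11, 0.36 and 0.37. Intermediate progenitor markers had 9 higher and 1 lower mean. By edgeR, 4 of them were higher at an unadjusted p under 0.05, against 6.57% of all genes tested. Their median was 0.47, with Neurog2 at 0.57 and Insm1 at 0.55. The label of the source as cortical progenitors therefore covers libraries that also hold abundant transcripts of neurons. Endothelial markers summed to 24.9 to 78.6 CPM in Mir and 39.3 to 279.8 CPM in Scr, with 10 of 10 means lower and a median of -2.69, and Cldn5, Pecam1 and Cdh5 were at 0 in Mir replicates 1 and 2. In those 2 libraries most of the sum came from Slco1c1, at 20.0 and 24.4 CPM. Microglial markers summed to 10.1 to 56.9 CPM in Mir and 20.6 to 81.3 CPM in Scr. In this list 10 of 10 means were lower, with a median of -1.46. Of the defining genes, Cx3cr1 was at 0 in Mir replicate 1, while Csf1r and C1qa had counts in every library. C1qa had only 1 and 2 counts in Mir replicates 1 and 2. In these libraries Csf1r, at 158 and 172 counts, gave most of the summed microglial level. All microglial markers other than Csf1r and C1qa were at 0 in Mir replicate 1. Pericyte and meningeal markers summed to 3.31, 208 and 28.7 CPM in Mir replicates 1, 2 and 3, against 55.9, 100.3 and 25.0 CPM in Scr replicates 1, 2 and 3. The 7 tested genes of this list had 3 higher and 4 lower means and a median of -0.69. The 3 higher means among tested genes, those of the collagen genes Col1a1, Col1a2 and Col3a1, came from Mir replicate 2, at 34.6, 39.6 and 88.1 CPM, against at most 2.92 CPM in Mir replicates 1 and 3. Lum and Dcn had enough reads in too few libraries to be tested. Both also had higher means in Mir, mostly from Mir replicate 2, at 9.84 and 28.9 CPM. Mir replicate 2 was also the lowest library for Reln, Vldlr and Dab1. Lum was at 0 in Mir replicate 1 and Scr replicate 1, whereas Pdgfrb and Col1a1 were not at 0 in any library. None of these markers was called by edgeR, and the part of these cell types in the levels of Reln, Vldlr and Dab1 was not tested.

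For each member, the 3 tested genes whose levels followed it most closely over the 6 libraries were found by Pearson's r of log2 (CPM + 0.5), as a description. Reln was followed by Dixdc1 (r = 0.998), Zfpm1 (0.997) and St8sia3 (0.994), and Vldlr by Asic2 (0.999), Cast (0.998) and Ina (0.997). Dab1 was followed by Gpr12 (0.997), Acer3 (0.996) and Lingo1 (0.996), and Lrp8 by Pdlim7 (0.996), the noncoding gene Gm36500 (0.993) and Ccdc28a (0.991). With 6 libraries, high values of r were not limited to these. At a lower limit, r over 0.95, 187 of the 16897 genes tested followed Reln, 337 Vldlr, 343 Dab1 and 73 Lrp8. Of these genes, St8sia3 is a sialyltransferase of the brain, Ina is a neuronal intermediate filament and Lingo1 a neuronal membrane protein; their log2 fold changes were -1.33, -1.36 and -1.25.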

How the data were processed

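RNA was extracted from sorted cells, kept at an integrity number above 9.5, and sequenced as 50 bp single reads after SMART-seq v4 preparation, per the labels' protocols. The deposited values are raw read counts per gene for each library; the submitters' processing notes name HISAT2 2.1.0, HTSeq 0.11.0, DESeq2 1.18.1 and the builds mm10 and GRCm38. For strand setting, annotation and multiply aligned reads, nothing is given in the sources used here. Of the listed reads, 21.9 to 23.6% were in genes; 28.8 to 31.6% in no feature, 0.357 to 0.376% ambiguous, 4.48 to 5.48% not aligned and 39.3 to 44.4% not uniquely aligned stood in 5 summary lines, which were left out. Symbols were found in GENCODE M21 for 54079 of 54146 genes.

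The counts were tested with edgeR 4.0.16 (filterByExpr, TMM, group as the sole term) in R 4.3.3, with limma 3.58.1 and DESeq2 1.42.0 as alternatives; each was tested on simulated data. Members and gene lists were chosen with earlier results of these data known, and some pathway genes are not reported here. Named genes were the members, the 2 pathway genes of smallest p per role, the defining markers, and the 3 genes most like each member. Fyn, Cul5, Adamts2, Nhlh2, Car10, Slco1c1, Col1a2, Col3a1, Dcn and genes overlapping a member were named after their values were seen. Replicate numbers were not used to pair libraries in this test.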

Additional observations from a re-analysis of the deposited data

How the results depend on the processing

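Under 13 alternatives to edgeR with all libraries, Reln, Vldlr and Dab1 had negative and Lrp8 positive log2 fold changes throughout, and the sole call was that of Reln by DESeq2, at -1.30 with an adjusted p of 0.0210, so that 1 of the 4 members was called there and 0 elsewhere. DESeq2 called 1 pathway gene, Rap1b, and all other alternatives 0. DESeq2 called 580 genes in all and edgeR 1; the cause was not tested. Leaving out 1 library at a time gave log2 fold changes of -1.65 to -1.03 for Reln, -1.0 to -0.35 for Vldlr, -1.17 to -0.54 for Dab1 and 0.01 to 0.31 for Lrp8, with edgeR adjusted p-values of 0.144 to 0.587, 0.156 to 0.733, 0.157 to 0.673 and 0.394 to 0.991. Without Scr replicate 2 and Mir replicate 3 together, they were -1.37, -0.72, -0.90 and 0.17, with adjusted p-values of 0.0881, 0.0838, 0.109 and 0.682. With 1 library left out, Spon1 lay between -0.91 and 0.10 (0.10 without Mir replicate 2, 0.034 without Scr replicate 2) and Yes1 between -0.21 and 0.075 (0.075 without Scr replicate 2); Yes1 was at 0.012 without Scr replicate 2 and Mir replicate 3 together, and Mylip at 0.030 without Scr replicate 2. The cause was not tested. Replicate numbers are shared between groups, but the correlations of same-numbered libraries' deviations from their group means were 0.22, -0.15 and -0.10. The highest value among differently numbered libraries was 0.36, for Mir replicate 3 and Scr replicate 2. With 3 libraries per group, these values do not settle whether the numbers mark pairs. With the replicate block, the log2 fold changes were -1.32 for Reln, -0.64 for Vldlr, 0.12 for Lrp8 and -0.79 for Dab1, with 0 members and 0 pathway genes called, and 0 genes in all against 1 without the block. With the filter on low counts removed, edgeR called 31 genes, none of them a member or a pathway gene. At 49 to 227 counts per library, Reln is the member whose value depth limits most.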

Other observations

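Lrp8os2, a gene on the opposite strand of the Lrp8 locus that shares no exon base with it, had 117, 68 and 26 counts in Mir replicates 1, 2 and 3, against 46, 45 and 61 counts in Scr replicates 1, 2 and 3. The groups overlapped, and Mir replicate 3 was the lowest library, as it was within the Mir group for Lrp8.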
